A study of Sus scrofa with 8 samples.

Results

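Motile cilia are the beating, hair-like projections that ciliated cells of the uterine lining carry into the lumen. The genes described here encode the beating core of such cilia (the axoneme), the dynein motors and their assembly factors, the transport trains that build a cilium, and FOXJ1, the transcription factor that switches the programme on. They were chosen by name: every pig gene symbol of DNAH, DNAI, DNAAF, RSPH, TEKT, CFAP or IFT followed by a digit, plus FOXJ1, CCDC39, CCDC40, TPPP3, CAPS and SPAG6. Of 75 such symbols in the gene table, 67 had a transcript in the count tables, out of 21064 genes in all. CFAP46, CFAP54, CFAP77, CFAP99, DNAH17, RSPH1, RSPH4A and RSPH6A were not analysed here. Each gene was represented by its transcript with the highest mean count.

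Endometrium, the inner layer of the uterus, came from 8 German Landrace gilts before puberty, given PMSG and then hCG, gonadotropins that start follicle growth and trigger ovulation. The 4 pregnant animals were inseminated with Pietrain semen, and the 4 control animals with the supernatant of centrifuged semen from the same boar. All were slaughtered on day 14 after insemination, which for controls was day 14 of the estrous cycle. Pregnant tissue was cut from hyperemic zones where embryos attach, and control tissue from matching places. The muscle layer was left out of both, and pregnancy and the choice of zone cannot be told apart. RNA from 3 places of 1 uterine horn was pooled per animal, and each library stands for 1 animal. Total counts ran from 28035007 to 41016150 per library, and the 67 genes held 0.0653% to 0.0861% of them in controls and 0.0558% to 0.0685% in pregnant animals.

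As background, an axoneme is a ring of doublet microtubules around a central pair. Outer and inner dynein arms slide the doublets against each other, radial spokes and the central pair regulate the arms, and tektins and other inner proteins strengthen the doublets. Intraflagellar transport (IFT) carries parts up and down the cilium, with IFT-B complexes outward and IFT-A complexes back. IFT also serves the single, non-beating primary cilium of many cell types, so these 14 genes are not particular to ciliated epithelium. In the uterus, multiciliated cells lie scattered among secretory cells of the luminal and glandular epithelium.

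The mRNA of motile cilium genes differed little between pregnant and control endometrium. Of the 59 genes with enough reads to be tested, 1 was higher in pregnant animals, CFAP69, and 0 were lower (edgeR's quasi-likelihood test, Benjamini-Hochberg adjusted p under 0.05). That is 1.69% of the genes tested. Among all 18783 transcripts in the same fit, 21.3% passed, 11.2% higher and 10.1% lower. At an unadjusted p under 0.05 there were 6 of the 59 genes, 1 higher and 5 lower, against 34.3% of all transcripts. DESeq2 passed 3 genes, CFAP69 higher and TPPP3 and IFT27 lower, and limma voom passed CFAP69 alone. Pregnant and control libraries did not overlap for 3 of the 59 genes (CFAP69, IFT22 and IFT27), or 5.08%, against 26.1% of all transcripts.

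Small differences were mostly towards lower levels in pregnant animals. The median log2 difference, pregnant over control, was −0.20 over the 59 genes and −0.02 over all transcripts tested. With 1 library left out it ran from −0.29 (without control replicate 4) to −0.09 (without control replicate 1 or pregnant replicate 1). Estimates were below 0 for 42 of the 59 genes (71.2%) and for 52.1% of all transcripts. In size, 55 of the 59 log2 differences (93.2%) were under 0.5 in either direction, against 67.4% of all transcripts. The 95% interval of the difference lay wholly within a 2-fold change in either direction for 43 of the 59 genes (72.9%, against 61.8% of all transcripts), and the others are not bounded that closely. These 43 were all 14 IFT genes and 29 of the 45 genes outside the IFT family (64.4%). Outside that family the share was thus near that of all transcripts, and the median interval was wider (1.32 against 0.90 on the log2 scale). In bulk tissue, fewer ciliated cells and less mRNA per cell cannot be told apart.

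**Figure D1:**
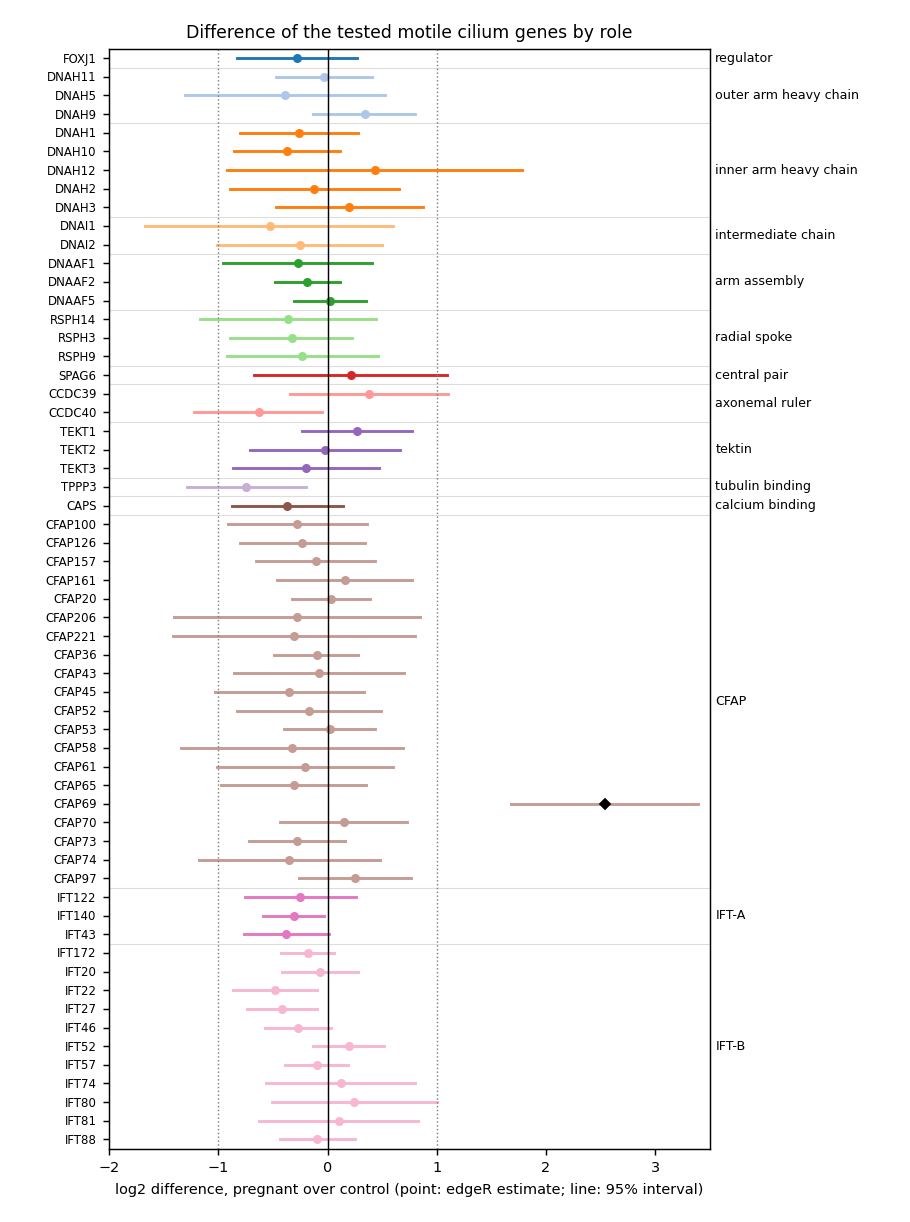
Log2 difference between pregnant and control endometrium for each of the 59 tested motile cilium genes, ordered by role, with the edgeR estimate as a point and its 95% interval as a line. CFAP69 (black diamond, 2.54) is the gene that passed, and dotted lines mark a 2-fold change.

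Genes that define multiciliated cells were read in the same libraries. FOXJ1, TPPP3 and CAPS were present in all 8 libraries, but they were chosen by name here, so their presence is no check of the label. MCIDAS and CCNO, early inducers of multiciliated cells from outside the chosen names, had only 0 to 6 and 0 to 10 reads per library. Both had too few reads to be tested. The epithelial adhesion gene EPCAM had a log2 difference of −0.32 ± 0.21 (SE; edgeR adjusted p = 0.315), while the epithelial keratin genes KRT8, KRT18 and KRT19 fell, by 2.10, 1.58 and 1.83 on the log2 scale. Of all 18 tested genes on the epithelial list 4 fell, these keratins and ESRP1, and 1 rose, CLDN4 (1.06 ± 0.20, edgeR adjusted p = 0.00342). The 18 include FZR1, a cell cycle gene matched through a shared alias of CDH1 (−0.25 ± 0.10, edgeR adjusted p = 0.105). FZR1 is no epithelial marker, and the epithelial cadherin gene CDH1 itself was not read. Levels below are in CPM, read counts scaled to a common library size after TMM normalization.

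FOXJ1 (Entrez gene 100623071, chromosome 12, 5212446 to 5215552 on Sscrofa10.2) is the master regulator of motile cilia. Its values, listed here and later in the order of replicates 1 to 4, were 42.1, 27.2, 31.8 and 21.7 CPM in controls and 15.0, 27.0, 29.6 and 29.4 CPM in pregnant animals. The groups overlapped, with the highest value in control replicate 1 and the lowest in pregnant replicate 1. The log2 difference was −0.28 ± 0.25 (SE), with a 95% interval of −0.83 to 0.27 and an edgeR adjusted p = 0.461.

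TPPP3, a tubulin-binding protein that marks ciliated cells, came closest to passing among the genes with lower estimates (Entrez gene 100521665, chromosome 6, 25312515 to 25316156). Controls stood at 85.0, 62.8, 65.9 and 36.1 CPM and pregnant animals at 38.8, 27.3, 48.3 and 34.5 CPM. Control replicate 4 lay among the pregnant values, while the other 3 controls lay above every pregnant animal. The log2 difference was −0.75 ± 0.25 (edgeR adjusted p = 0.0543; over alternatives 0.00693 to 0.154), and without control replicate 4 it passed, at −0.94 with an adjusted p = 0.00693. Its other transcript gave the same log2 difference of −0.75. The 2 transcripts had close mean counts (1528.75 and 1572.25) and may hold the same reads, so this adds no separate support. The gene also passed with DESeq2 (adjusted p = 0.0253) and without pregnant replicate 3 (adjusted p = 0.0449).

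CAPS encodes calcyphosine, a calcium-binding protein of ciliated cells (Entrez gene 100514564, chromosome 2, 73688743 to 73690472). It stood at 22.0, 15.1, 16.9 and 11.0 CPM in controls and 9.34, 11.2, 16.1 and 13.8 CPM in pregnant animals. The groups overlapped in the range of 11 to 16 CPM, and the log2 difference was −0.37 ± 0.23 (edgeR adjusted p = 0.294). The CAPS model shares exonic bases with RANBP3 on the opposite strand, and reads of the 2 genes cannot be told apart there because the library protocol in the labels has no step that marks the strand. RANBP3 had a log2 difference of −0.15.

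**Figure D2:**
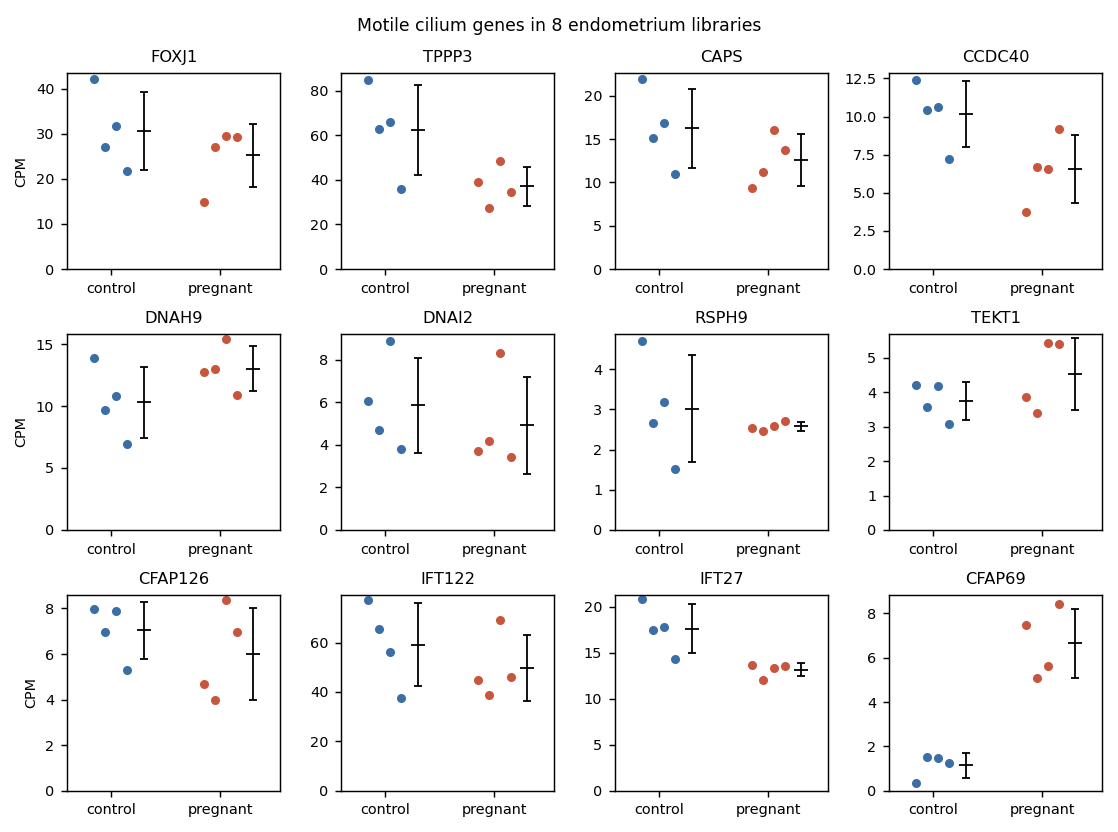
CPM of 12 motile cilium genes, with 1 point per library (blue for the 4 controls, red for the 4 pregnant animals, replicates 1 to 4 from left to right) and the group mean with its SD in black. The groups overlap for 10 of the 12 genes, and lie apart for IFT27 and CFAP69.

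CFAP69, needed to build the sperm flagellum, rose in pregnant endometrium (Entrez gene 100622715, chromosome 9, 76943711 to 76995379). Its control values were 0.339, 1.53, 1.46 and 1.23 CPM and its pregnant values 7.47, 5.10, 5.62 and 8.42 CPM. Every pregnant animal lay above every control, from a mean of 1.14 ± 0.549 to one of 6.65 ± 1.56 CPM (SD, n = 4). The log2 difference was 2.54 ± 0.39, with a 95% interval of 1.68 to 3.39 and an edgeR adjusted p = 0.00106. CFAP69 passed under all 15 alternatives in this comparison, with log2 differences from 2.26 to 2.72.

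Of 5 tested genes around CFAP69 on the chromosome, looked at once its value was known, 4 were higher in pregnant animals too and the nearest, CLDN12, did not pass. Among all transcripts tested, 11.2% were higher. STEAP2, a metalloreductase gene on the same strand that ends 14406 bases before the CFAP69 model, rose from 0.0775 ± 0.0613 to 8.24 ± 3.88 CPM (log2 difference 6.65 ± 0.58, edgeR adjusted p = 3.66e-05). Its relative STEAP1, further upstream, rose by 4.14 ± 0.56 on the log2 scale (edgeR adjusted p = 0.000559). On the other side, GTPBP10 rose by 1.04 ± 0.33 (edgeR adjusted p = 0.0481), and an unnamed gene beyond it (Entrez gene 100518208) by 3.39 ± 0.37. CLDN12, a claudin gene on the opposite strand that lies 5407 bases after the CFAP69 model, had a log2 difference of 0.38 ± 0.15 that did not pass (edgeR adjusted p = 0.0948).

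The CFAP69 model shares no exonic bases with another gene in the deposited annotation. Whether reads of a neighbour enter its count was not tested. Pregnant replicates 1 and 4, the highest for CFAP69, were also the highest for STEAP1, STEAP2 and the unnamed gene. GTPBP10 was instead highest in pregnant replicates 3 and 1 (9.89 and 9.31 CPM), and CLDN12 in replicates 1 and 2 (13.45 and 12.59 CPM). Control replicate 1, the lowest control for CFAP69, was also the lowest for STEAP2, CLDN12 and GTPBP10. GTPBP10 stood there at 1.53 CPM, against 4.75 to 5.78 CPM in the other controls. STEAP1 was lowest in control replicate 2 and the unnamed gene in control replicate 4.

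**Figure D3:**
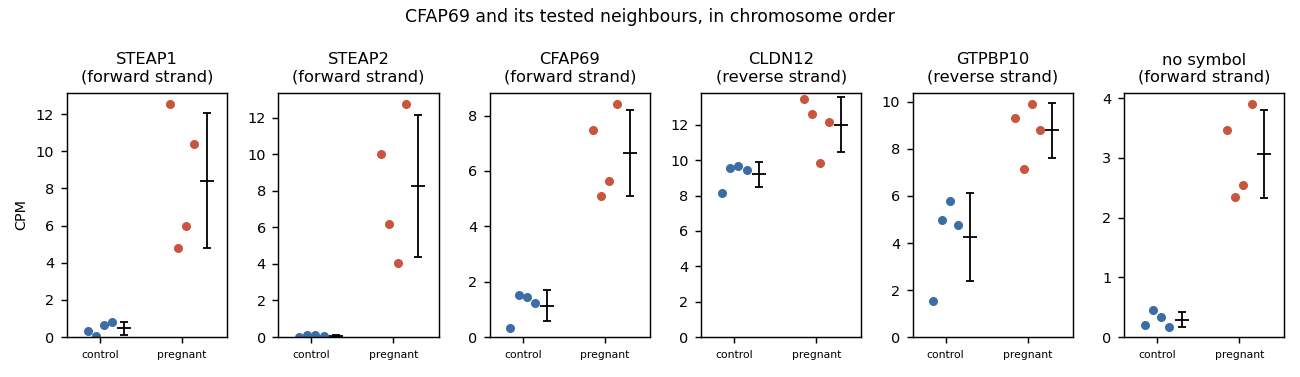
CPM of CFAP69 and its tested neighbours in the order they lie on chromosome 9, with 1 point per library, the group mean and its SD. STEAP1, STEAP2, CFAP69, GTPBP10 and the unnamed gene (Entrez gene 100518208) passed as higher in pregnant animals, and CLDN12 did not pass.

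Dynein heavy chains are the motors of the arms. Of 12 DNAH genes 8 were tested and 0 passed, with 0 also at an unadjusted p under 0.05, by DESeq2 and by limma voom, and their median log2 difference was −0.07. DNAH9 of the outer arm was highest per length, with 4.45 CPM per kb of exon averaged over the 8 libraries, followed by DNAH3 of the inner arm with 2.73 and DNAH1, also of the inner arm, with 1.34. The ranges over libraries of DNAH9 (2.64 to 5.87) and DNAH3 (1.81 to 3.85) overlapped, while those of DNAH3 and DNAH1 (0.712 to 1.81) met at their edge. The models of this family differ widely in exon length, from 1.41 kb for DNAH14 to 14.3 kb for DNAH8, and that of DNAH9 holds 2.62 kb, so a level per kb covers only the exons in the deposited assembly.

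DNAH9 stood at 13.9, 9.67, 10.8 and 6.90 CPM in controls and 12.7, 13.0, 15.4 and 10.9 CPM in pregnant animals. The groups overlapped, and the log2 difference of 0.34 ± 0.21 did not pass (edgeR adjusted p = 0.288). DNAH5 and DNAH11, the other outer-arm genes tested, had log2 differences of −0.39 ± 0.42 and −0.03 ± 0.20. The DNAH11 model shares exonic bases with CDCA7L on the opposite strand.

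Among inner-arm genes, DNAH10 stood at 18.2, 11.1, 12.3 and 9.34 CPM in controls and 7.64, 10.7, 9.76 and 11.2 CPM in pregnant animals. Control replicate 1 was high and the other 3 controls lay within or near the pregnant range (log2 difference −0.37 ± 0.22, edgeR adjusted p = 0.258). DNAH3 ran from 4.33 to 8.44 CPM in controls and from 4.10 to 8.72 CPM in pregnant animals (log2 difference 0.20 ± 0.30, edgeR adjusted p = 0.678). DNAH1, DNAH2 and DNAH12 had log2 differences of −0.26, −0.12 and 0.43. The interval of DNAH12, −0.92 to 1.78, was the widest in the family, at 0.136 to 1.16 CPM per library.

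Intermediate chains hold the outer arm to the doublet. DNAI2 stood at 6.07, 4.70, 8.89 and 3.78 CPM in controls and 3.72, 4.18, 8.30 and 3.45 CPM in pregnant animals. In each group replicate 3 was the highest, and the 2 ranges nearly coincided (log2 difference −0.25 ± 0.34, edgeR adjusted p = 0.642). DNAI1 ran from 0.716 to 2.68 CPM in controls and from 0.354 to 1.95 CPM in pregnant animals (log2 difference −0.53 ± 0.51, edgeR adjusted p = 0.498). Its model shares exonic bases with ENHO and CNTFR on the opposite strand.

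Assembly factors fold the arms in the cytoplasm before they enter the cilium. DNAAF5 and DNAAF2 were well measured in every library, at 27.0 to 37.8 CPM and 12.8 to 17.9 CPM. Their log2 differences were 0.02 ± 0.15 and −0.19 ± 0.13 (edgeR adjusted p = 0.943 and 0.36), and both 95% intervals lay within −0.48 to 0.35. The DNAAF2 model shares exonic bases with an unnamed gene on the opposite strand. DNAAF1, at 1.88 to 4.61 CPM, had a log2 difference of −0.27 ± 0.31.

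Radial spokes carry signals from the central pair to the arms. RSPH3, of the spoke stalk, stood at 6.04, 4.88, 5.64 and 3.41 CPM in controls and 3.57, 3.35, 5.49 and 3.42 CPM in pregnant animals. Pregnant replicate 3 lay among the controls and control replicate 4 among the other pregnant animals (log2 difference −0.33 ± 0.25, edgeR adjusted p = 0.375). RSPH9, of the spoke head, ran from 1.52 to 4.71 CPM in controls and only from 2.46 to 2.71 CPM in pregnant animals (log2 difference −0.23 ± 0.31). The third tested spoke gene, RSPH14, ran from 1.26 to 3.66 CPM in controls and from 1.20 to 2.23 CPM in pregnant animals and had a log2 difference of −0.36 ± 0.36. For the central pair protein SPAG6, values were 1.56, 1.497, 2.65 and 0.974 CPM in controls and 0.849, 1.96, 2.15 and 2.75 CPM in pregnant animals, a log2 difference of 0.21 ± 0.40.

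CCDC39 and CCDC40 act as a pair, the ruler that sets the spacing of spokes and inner arms. CCDC40 stood at 12.4, 10.4, 10.7 and 7.22 CPM in controls and 3.75, 6.71, 6.55 and 9.18 CPM in pregnant animals. The groups overlapped through control replicate 4 and pregnant replicate 4, and the log2 difference of −0.63 ± 0.27 did not pass (edgeR adjusted p = 0.118; over alternatives 0.0619 to 0.255). CCDC39 stood at 1.59, 4.31, 3.75 and 3.29 CPM in controls and 3.33, 3.79, 3.41 and 6.34 CPM in pregnant animals, with control replicate 1 low and pregnant replicate 4 high. Its log2 difference was 0.38 ± 0.33 (edgeR adjusted p = 0.449), and whether the 2 genes differ from each other in this respect was not tested.

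Tektins form filaments inside the doublets. TEKT1 ran from 3.06 to 4.21 CPM in controls and from 3.40 to 5.43 CPM in pregnant animals (log2 difference 0.27 ± 0.23, edgeR adjusted p = 0.436). TEKT2 stood at 6.78, 5.09, 4.61 and 2.98 CPM in controls and 2.62, 4.57, 6.02 and 5.89 CPM in pregnant animals, with nearly equal means of 4.87 ± 1.56 and 4.78 ± 1.58 CPM. TEKT3 was at 0.917 to 1.83 CPM over the 8 libraries (log2 difference −0.20 ± 0.30).

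The CFAP genes encode a mixed group of axonemal proteins. Of 22 genes 20 were tested, 1 rose (CFAP69) and 0 fell, with a median log2 difference of −0.19. The highest per length were CFAP20, a doublet inner protein, with 10.6 CPM per kb, and CFAP126, which positions basal bodies, with 8.64. CFAP20 stood at 12.6, 15.2, 13.3 and 11.3 CPM in controls and 15.2, 10.4, 14.0 and 14.0 CPM in pregnant animals, a log2 difference of 0.03 ± 0.16 with a 95% interval of −0.33 to 0.39. CFAP126 ran from 5.30 to 7.97 CPM in controls and from 3.97 to 8.37 CPM in pregnant animals (log2 difference −0.23 ± 0.26).

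CFAP73 and CFAP100 belong to 1 complex at the base of an inner arm. Both had log2 differences of −0.28, with edgeR adjusted p = 0.356 and 0.534. CFAP73 ran from 5.97 to 11.2 CPM in controls and from 6.74 to 7.81 CPM in pregnant animals, within the control range. The CFAP73 model shares exonic bases with DDX54 on the opposite strand. The doublet inner proteins CFAP45, CFAP52, CFAP53 and CFAP161 had log2 differences of −0.35, −0.17, 0.02 and 0.16, none of which passed.

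CFAP74, a central pair protein, was measured at 13.0, 17.7, 20.4 and 15.7 CPM in controls. Pregnant replicates 1 to 3 stood at 8.46, 8.26 and 8.80 CPM, below every control, while pregnant replicate 4 stood at 26.9 CPM, above every control. The log2 difference was −0.35 ± 0.37 (edgeR adjusted p = 0.548; over alternatives 0.00657 to 0.797), and without pregnant replicate 4 it passed at −0.97 (adjusted p = 0.00657). CFAP74 was singled out after its values were seen.

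IFT genes had higher levels per length than most axonemal genes and were measured more tightly. Of 14 genes all 14 were tested and 0 passed, with 3 at an unadjusted p under 0.05 (IFT22, IFT27 and IFT140, all lower), 1 by DESeq2 (IFT27) and 0 by limma voom. The median SD of log2 values within groups was 0.20 over the IFT genes, 0.46 over the other 45 tested genes and 0.29 over all transcripts. All 14 of their 95% intervals lay within a 2-fold change in either direction. IFT122 and IFT46 led the family with 31.3 and 21.2 CPM per kb. IFT122, of IFT-A, ran from 37.6 to 77.2 CPM in controls and from 38.6 to 69.2 CPM in pregnant animals, and IFT46, of IFT-B, from 38.3 to 48.9 and from 30.9 to 40.3 CPM. The groups overlapped for both genes.

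IFT27, a small GTPase of the IFT-B complex (Entrez gene 100517032, chromosome 5, 8594332 to 8616023), stood at 20.9, 17.5, 17.8 and 14.3 CPM in controls. Pregnant animals stood at 13.7, 12.1, 13.3 and 13.6 CPM, all below the lowest control. The log2 difference of −0.42 ± 0.15 did not pass (edgeR adjusted p = 0.0649; over alternatives 0.031 to 0.162). It passed with DESeq2 (adjusted p = 0.0441) and without control replicate 4 (adjusted p = 0.031).

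IFT22, another small GTPase of IFT-B (Entrez gene 100519188, chromosome 3, 8492010 to 8496117), stood at 12.04, 9.73, 9.26 and 8.71 CPM in controls. Pregnant animals stood at 7.86, 8.05, 6.72 and 5.80 CPM, again all below the lowest control. The log2 difference was −0.48 ± 0.18 (edgeR adjusted p = 0.0745; over alternatives 0.0543 to 0.192), so it passed in no alternative. Other IFT-B genes had log2 differences from −0.27 (IFT46) to 0.24 (IFT80), and the IFT-A genes IFT122, IFT140 and IFT43 had −0.25, −0.31 and −0.38. The IFT172 and IFT52 models share exonic bases with NRBP1 and SGK2.

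**Figure D4:**
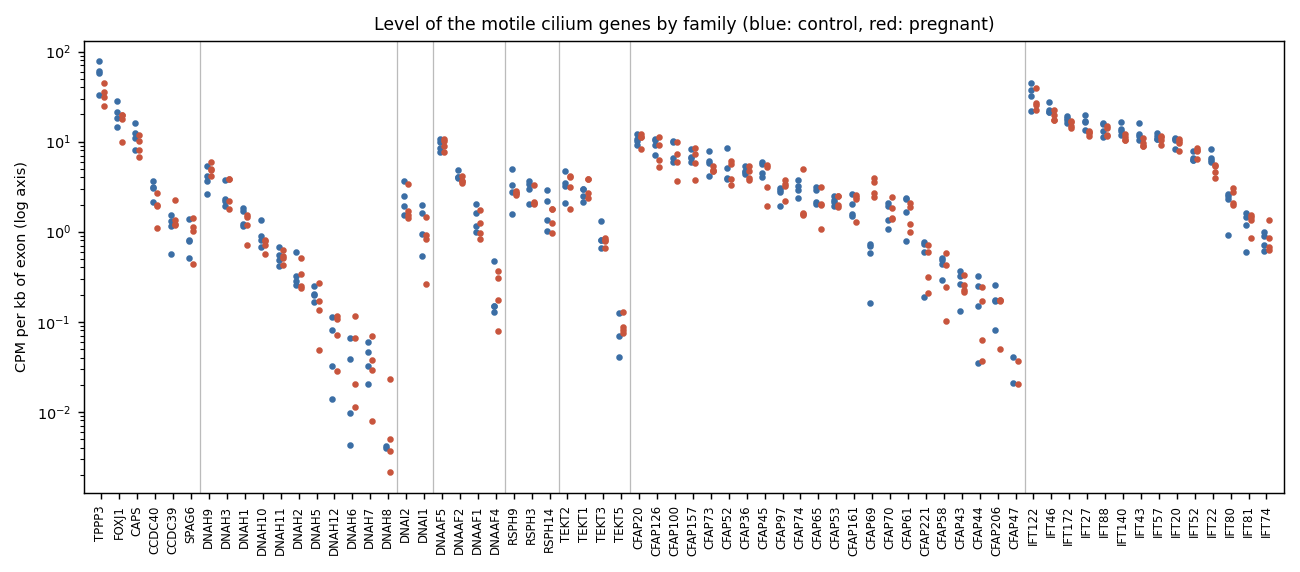
Level of each motile cilium gene in CPM per kb of exon on a log axis, by family and in falling order, with 1 point per library (blue for control, red for pregnant, values of 0 not drawn and DNAH14 left out at 0 reads). TPPP3 (45.8 on average) and IFT122 (31.3) are the highest, and the families span ranges from the DNAH genes, most below 1, to the IFT genes, most above 5.

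The remaining 8 genes had too few reads to be tested. DNAH14 had 0 reads, CFAP47 had 12, DNAH8 19, TEKT5 32, DNAAF4 53, DNAH6 74, CFAP44 81 and DNAH7 86 over the 8 libraries together. For DNAH14 the limit that 0 reads allow is 3 counts. The filter on low counts left these genes out, and differences in them were not tested.

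Levels of the axonemal genes also varied between animals of 1 group. Each gene's CPM was set against its own mean over the 8 libraries, and the median of these log2 ratios was taken over the 45 tested genes outside the IFT family. In controls it was 0.29, 0.02, 0.28 and −0.36, and in pregnant animals −0.53, −0.19, 0.20 and 0.11. The groups overlapped, and the range within each group, down to control replicate 4 and pregnant replicate 1, was wider than the distance between the groups.

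Control replicate 4 was the lowest of the 4 controls for 31 of these 45 genes (68.9%), against 26.5% of all transcripts. Pregnant replicate 1 was the lowest of its group for 27 of the 45 (60.0%), against 28.3% of all transcripts. Control replicate 1 was the highest control for 23 of the 45 genes (51.1%, against 31.6% of all transcripts). It was the lowest control for 7 (15.6%, against 33.8% of all transcripts): CCDC39, CFAP43, CFAP65, CFAP69, CFAP74, CFAP97 and DNAH12. The genes share libraries and may share cells, so these counts describe the animals and are not independent.

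Summed over the 45 genes, the level was 389 ± 72 CPM in controls and 337 ± 52.6 CPM in pregnant animals (SD, n = 4). For the 14 IFT genes the sums were 371 ± 46.9 and 320 ± 28.4 CPM. Both sums stood at about the same ratio, 0.867 and 0.863 of the control mean. A sum weighs the highest genes most, and TPPP3 alone went from a mean of 62.4 to 37.2 CPM within the 45-gene sum. The like ratios therefore do not show a shared shift of the genes.

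**Figure D5:**
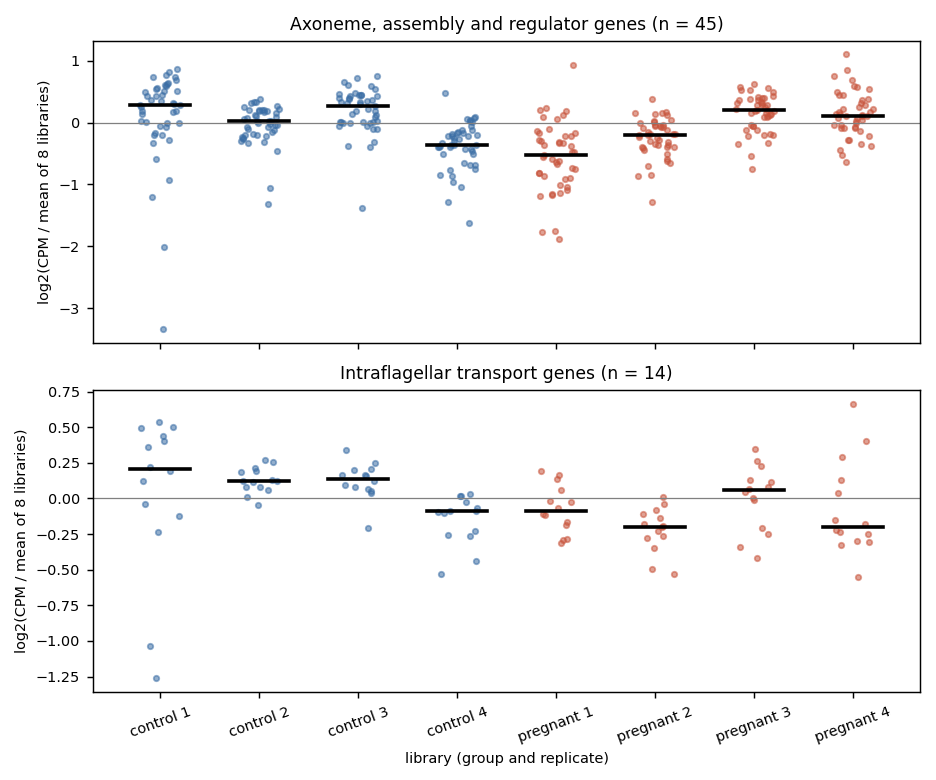
Log2 of each tested gene's CPM over its mean of the 8 libraries, by library, for the 45 genes outside the IFT family (upper panel) and the 14 IFT genes (lower panel), with the median as a black bar. Control replicate 4 (−0.36) and pregnant replicate 1 (−0.53) have the lowest medians of their groups in the upper panel.

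A separate list held other motile cilium genes. Of 74 listed genes 47 were matched and 44 tested, with 2 higher and 2 lower (9.09%, against 21.3% of all transcripts) and a median log2 difference of −0.17. Those higher were DEUP1, which helps to multiply basal bodies (1.10 ± 0.28, edgeR adjusted p = 0.017), and CCDC146 (0.94 ± 0.28, 0.0357). Those lower were SPAG1, a dynein assembly factor, from 88.4 ± 32.9 to 28.9 ± 5.12 CPM (−1.61 ± 0.26, edgeR adjusted p = 0.00133), and CCDC170 (−0.75 ± 0.17, 0.0117). Of 30 tested primary cilium genes 0 were higher and 1 was lower, EVC of the hedgehog pathway (−1.73 ± 0.18, edgeR adjusted p = 0.000113), with a median log2 difference of −0.12.

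Markers of other cell types were read in the same animals, beside the 21.3% of all transcripts that passed. Of 18 tested genes on the epithelial list 1 rose (CLDN4, named after its value was seen) and 4 fell (KRT8, KRT18, KRT19 and ESRP1), or 27.8%. Their summed level was 4548 to 6288 CPM in controls and 3552 to 4622 CPM in pregnant animals. The share and the sum include FZR1, which is no epithelial marker. Of 15 leukocyte markers 14 rose and 0 fell (93.3%), and their sum went from 284 to 584 CPM to 1022 to 1454 CPM. Smooth muscle markers numbered 8, of which 0 rose and 4 fell (50.0%; sum 911 to 1341 and 629 to 929 CPM). Of 9 endothelial markers 2 rose and 0 fell (22.2%; sum 1060 to 1525 and 1222 to 1658 CPM), and of 8 fibroblast markers 2 rose and 2 fell (50.0%; sum 24880 to 29630 and 16240 to 23760 CPM). The part of these shifts in the values of the cilium genes was not tested.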

How the data were processed

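Unnormalized counts of each transcript in 8 libraries, and exon positions, were deposited by the authors. CASAVA 1.6, TopHat 1.4, Cufflinks 1.3, DESeq and the build Sscrofa10.2 appear in the submitters' processing notes, and how reads were counted is not given in the sources used here. Transcripts of 1 gene had similar log2 differences, and whether a read was counted for more than 1 of them was not tested. Entrez IDs were matched to symbols of RefSeq's Sscrofa11.1 table, for names only (16270 of 21064 genes). The main test was edgeR 4.0.16 under R 4.3.3, with TMM scaling, filterByExpr at a minimum of 10 counts, a robust quasi-likelihood fit on group alone, and Benjamini-Hochberg adjustment over 18783 transcripts and a threshold of 0.05. SE and 95% intervals are those implied by the F statistic. A value of 0.05 CPM was added before per-library log2 ratios. DESeq2 1.42.0, limma 3.58.1 (voom) and the fits in the closing section were alternatives, and the fit was tested on simulated data. There the fit found 2.63% of 1.5-fold changes, 44.6% of 2-fold changes and 90.3% of 4-fold changes. These changes were put into only 76, 56 and 62 of 18615 transcripts, while 21.3% of transcripts passed in the data. The adjustment of p depends on that share, so these rates are not those of the main test.

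The genes and lists were chosen with earlier results of these data known. Named with values by library or range were genes that passed, the 6 single genes, and in each family the 2 highest per kb and the 2 with the smallest p. Others are named by their range or log2 difference. Genes of other lists are named where they passed, or as defining markers of a cell type (EPCAM, MCIDAS, CCNO, PRM2, TNP1 and AKAP4). FZR1, GMNC, IZUMO1, TNP2 and CRISP2 did not pass or were not tested, and are named outside these rules. PCR reads are not independent molecules, so limits from counts cover counting error only.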

Additional observations from a re-analysis of the deposited data

Results flagged for a closer look

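In 118 groups of 4 values (59 genes in 2 groups), 6 held 1 library far from the other 3 by Dixon's criterion, and chance gives about 1 in 20. CFAP74 stood at 26.9 CPM in pregnant replicate 4, against 8.26 to 8.80 CPM in the other pregnant animals. CCDC39 stood at 6.34 CPM in the same library, against 3.33 to 3.79 CPM. Pregnant replicate 3 was high for DNAI2, at 8.30 CPM against 3.45 to 4.18 CPM, and for RSPH3, at 5.49 CPM against 3.35 to 3.57 CPM. CFAP206 was low in pregnant replicate 2, at 0.104 CPM against 0.354 to 0.366 CPM, which rests on few reads. DNAAF2 was high in control replicate 1, at 17.9 CPM against 14.5 to 14.9 CPM.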

How the results depend on the processing

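CFAP69 was the 1 gene higher in the original fit and under all 15 alternatives. The count of genes that passed was 2, with 1 lower (TPPP3), with the replicate number as a block, and 3, with 2 lower (TPPP3 and IFT27), with DESeq2. The numbers do not pair animals, since deviations of same-numbered libraries correlated at −0.0932 to 0.186, and 3 of 8 libraries correlated best with their own number. Leaving out each library in turn, 1 to 3 genes passed, 0 to 2 of them lower, and the median log2 difference ran from −0.29 to −0.09. The count was 3 without control replicate 4 (TPPP3 and IFT27 added), 2 without pregnant replicate 3 (TPPP3) and 2 without pregnant replicate 4 (CFAP74). Of all transcripts tested, transcripts lower in pregnant animals numbered 1265 (without pregnant replicate 2) to 2017 (without control replicate 4). Of the 59 genes, 41 kept their sign in every alternative. The sign of the other 18 changed when 1 library was left out, with these ranges of log2 differences: CFAP157 −0.29 to 0.07, CFAP20 −0.03 to 0.14, CFAP206 −0.52 to 0.02, CFAP43 −0.28 to 0.09, CFAP52 −0.32 to 0.16, CFAP53 −0.05 to 0.10, CFAP70 −0.05 to 0.29, DNAAF5 −0.05 to 0.12, DNAH11 −0.12 to 0.13, DNAH2 −0.40 to 0.22, DNAI2 −0.63 to 0.02, IFT20 −0.16 to 0.01, IFT74 −0.16 to 0.25, IFT81 −0.10 to 0.26, RSPH9 −0.45 to 0.10, SPAG6 −0.01 to 0.52, TEKT2 −0.20 to 0.20 and TEKT3 −0.33 to 0.06. None of these 18 passed in any alternative, and the cause was not tested.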

Other observations

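Many axonemal genes are also part of the sperm tail, and the pregnant animals had been inseminated with semen, the controls with its supernatant. Among 19 matched sperm genes, the protamine gene PRM1, which packs DNA in sperm heads, had 0 reads in all 4 controls and 16, 17, 28 and 11 reads in pregnant replicates 1 to 4. Against a floor of 3 counts over the control group it was at least 23.7-fold higher, with reads in 4 of 4 pregnant animals. PRM1 passed the filter on low counts only through the pregnant libraries, so its call in the fit adds no support. PRM2 also had 0 reads in controls and 5, 17, 4 and 3 reads in pregnant animals, too few to be tested, at least 9.55-fold higher against the same floor. Of the 8 sperm genes tested, PRM1 was higher and 0 were lower (12.5%, against 21.3% of all transcripts). Estimates were below 0 for 6 of the 8 (75%), against 52.1% of all transcripts. The transition protein gene TNP1 had 0 reads in all 8 libraries, and AKAP4, of the sperm tail, had 20 to 34 reads in controls and 8 to 40 in pregnant animals. TNP2 had 0 to 16 reads in controls and 4 to 20 in pregnant animals, and CRISP2 had 0 to 31 and 0 to 8. IZUMO1 had a log2 difference of −0.89 ± 0.35 (edgeR adjusted p = 0.1). Summed over the 19 genes, the level was 14.45 to 18.45 CPM in controls and 12.85 to 15.29 CPM in pregnant animals. The source of the protamine reads was not tested.

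GMNC, which starts multiciliated cell formation, had a mean of 1.24 ± 0.602 CPM in controls and 2.79 ± 1.11 CPM in pregnant animals (log2 difference 1.17 ± 0.44, edgeR adjusted p = 0.0821), and did not pass. It was singled out after its values were seen.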
